A study of Mus musculus with 96 samples.

Results

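Horizontal basal cells (HBCs), the reserve stem cells of the mouse olfactory epithelium (OE), were profiled as pairs of sisters, both daughters of a single division in culture. The 24 pairs described here (48 cells) are those of 48 pairs (96 cells) in which the sisters differed most in a cycle score, the mean of log2(CPM + 1) over Mki67, Cdk1, Cdc20, Ccnb1, Aurka, Aurkb, Plk1, Cenpe and Cenpa, where CPM is a cell's count of a gene scaled to the same total over all genes in every cell and 1 is a pseudocount. Within each pair the cell with the higher score is called the high-score sister and the other the low-score sister. All cells came from wild type mice of 6 to 8 weeks of age whose OE had been injured with methimazole and was taken 2 days after the injection, and all were HBCs grown in primary culture, moved from Tropoelastin to Fibronectin to make them divide, followed by live imaging and picked one by one with a mouth pipette. There was no untreated or second condition, and the strain, mouse and culture of a cell are not given in the sources used here. The 96 cells were therefore treated as 1 sample, no test between the sisters was made, and every value below describes these cells only. Because the score chose both the pairs and the direction within a pair, any difference in the 9 score genes was built in, and no difference in other cycling genes is independent of it.

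HBCs rest in the uninjured epithelium and start to divide when the cells above them are lost, after which a daughter may remain a basal cell or go on to make other lineages of the OE. Transcripts of the mitotic machinery build up through G2, peak around mitosis and are cleared again in G1, so that their level in a cell depends on how far that cell has gone through the cycle and on whether it is in the cycle at all. Genes of this programme are commonly read from promoters that carry CCAAT boxes, bound by NF-Y, and a cell cycle genes homology region (CHR), bound by DREAM and by MYB-MuvB complexes, while many S phase genes carry E2F sites.

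Promoters of 3 score genes with the largest paired differences and of Suv39h1, a histone H3 lysine 9 methyltransferase described below, are printed to show how the motifs lie in single genes. That the 3 score genes were higher was built in by the choice. Each is the RefSeq window from 250 bases before to 50 bases after the start of the gene in GRCm38, written 5′ to 3′ on the strand of the gene. Capitals mark letters of 3 motifs on either strand, which are CCAAT (or ATTGG), the CHR letters TTTGAA (or TTCAAA) and the E2F letters TTCCCGC and also TTGGCGC (or, read on the other strand, GCGGGAA and also GCGCCAA), and the E2F match of Ccnb1 overlaps its first CCAAT.
Cdc20, chr4:118437294-118437593, minus strand: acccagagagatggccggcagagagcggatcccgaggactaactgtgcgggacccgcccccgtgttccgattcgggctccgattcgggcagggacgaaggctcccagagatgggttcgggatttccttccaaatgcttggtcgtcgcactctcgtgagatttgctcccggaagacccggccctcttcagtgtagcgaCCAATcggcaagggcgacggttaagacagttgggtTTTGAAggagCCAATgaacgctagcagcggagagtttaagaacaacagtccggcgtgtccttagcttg
Plk1, chr7:122159185-122159484, plus strand: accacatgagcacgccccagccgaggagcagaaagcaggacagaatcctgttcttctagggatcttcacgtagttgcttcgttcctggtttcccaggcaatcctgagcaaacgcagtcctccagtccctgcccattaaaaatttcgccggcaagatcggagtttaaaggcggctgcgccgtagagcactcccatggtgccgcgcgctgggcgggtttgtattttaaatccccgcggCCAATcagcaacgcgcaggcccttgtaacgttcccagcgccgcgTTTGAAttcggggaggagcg
Ccnb1, chr13:100786437-100786736, minus strand: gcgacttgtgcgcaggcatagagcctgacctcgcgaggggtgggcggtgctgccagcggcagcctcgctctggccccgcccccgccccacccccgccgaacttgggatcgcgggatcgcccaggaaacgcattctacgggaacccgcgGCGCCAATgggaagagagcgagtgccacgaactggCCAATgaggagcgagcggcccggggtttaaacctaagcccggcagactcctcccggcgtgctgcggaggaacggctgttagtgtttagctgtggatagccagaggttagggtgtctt
Suv39h1, chrX:8074711-8075010, minus strand: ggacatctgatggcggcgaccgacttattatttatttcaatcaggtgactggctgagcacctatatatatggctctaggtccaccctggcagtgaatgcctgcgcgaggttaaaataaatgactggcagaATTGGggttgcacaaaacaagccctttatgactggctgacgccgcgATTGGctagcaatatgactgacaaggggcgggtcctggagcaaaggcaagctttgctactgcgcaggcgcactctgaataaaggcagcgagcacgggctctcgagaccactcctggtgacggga

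In the Cdc20 window, which has CCAAT at 53 and 8 bases before the start, the CHR letters lie between them, at 18 bases before the start. The Plk1 window has CCAAT at 14 bases before and CHR at 30 bases after the start. Ccnb1 has CCAAT at 99 and 67 bases before the start and no CHR letters in this window, and the Suv39h1 window printed has ATTGG at 120 and 74 bases before the start and neither CHR nor E2F letters. The table holds a second Suv39h1 window (chrX:8074312-8074611), which is not printed and held none of the 3 motifs. In the shares that follow, a gene with several windows counts once, if any of them holds the letters. Of the 8 score genes with a window in the table, 8 held CCAAT, 6 held CHR and 3 held E2F. Among 102 mitosis genes outside the score that had a window, 69.6% held CCAAT, 55.9% held CHR and 23.5% held E2F, beside 43.5%, 14.6% and 14.5% of the 9677 genes tested that had a window and 41.1%, 20.2% and 7.79% of all 27025 genes of the table. The 46 S phase genes with a window held CCAAT in 29 genes, CHR in 8 (17.4%) and E2F in 24 (52.2%). The 171 genes with a window that were at least 2-fold higher in the high-score sisters as a whole held CCAAT in 40.4%, CHR in 15.8% and E2F in 15.2%. A match is a run of letters and not a shown binding site.

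Score differences among the 24 pairs ran from 0.65 to 5.40, with a median of 1.19. The pair just inside, pair 9, differed by 0.65 and the pair just outside, pair 4, by 0.64, so the border between chosen and other pairs fell in a continuous range. Only 5 pairs differed by 2 or more, which were pair 46 (7.52 against 2.12), pair 17 (8.39 against 4.16), pair 38 (6.89 against 3.89), pair 3 (8.88 against 6.14) and pair 41 (6.03 against 3.35). High and low are relative within a pair: 20 of the 24 low-score sisters scored above the high-score sister of at least 1 other pair. Set against the median score of the 96 cells (6.15), 10 pairs had a sister on either side, 7 pairs had both sisters above it and 7 had both below it, whereas 2 of the other 24 pairs had a sister on either side. The high-score sister carried the number 1 in the labels in 11 pairs and the number 2 in 13.

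**Figure D1:**
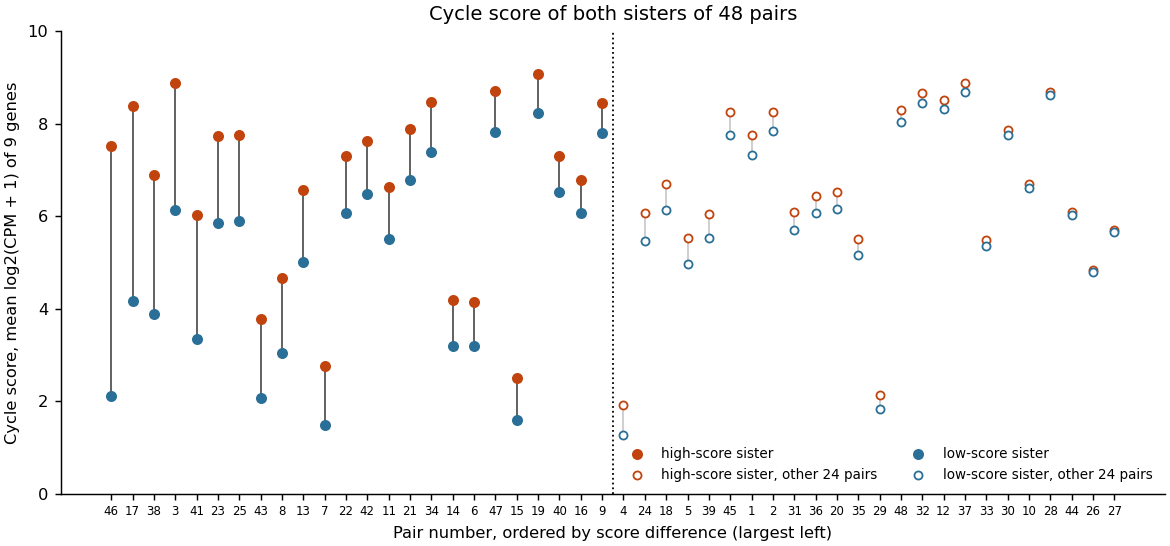
Cycle score (mean log2(CPM + 1) of 9 genes, vertical axis) of the high-score and low-score sister of each of 48 pairs, ordered by score difference, with a line joining sisters and a dotted line after the 24 pairs described. Differences fall from 5.40 in pair 46 to 0.65 in pair 9, and pairs at the right of the dotted line (open circles) differ by 0.64 or less.

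Each cell had between 29454150 and 43576313 counts on genes, with medians of 36410116 in high-score and 35211010 in low-score sisters. ERCC spike-in took between 1.06% and 5.64% of a cell's counts. Keratins Krt5 and Krt14 and the basal factor Trp63, which define HBCs, were counted in all 48 cells. Markers of other cells were at 0 in many cells: of 14 sustentacular, microvillar and gland markers, 7 and 8 had no count in any high-score or low-score sister and their summed level was at most 37.3 and 13.2 CPM. For 8 respiratory markers that level was at most 14.2 and 10.2 CPM (5 at 0 throughout in both), for 11 immune markers 98.7 and 167 CPM (6 and 6 at 0) and for 11 fibroblast and endothelial markers 14.8 and 57.6 CPM (7 and 4 at 0). Summed levels of 17 globose basal and neuronal markers ran from 0.542 to 306 CPM in high-score and from 0.828 to 415 CPM in low-score sisters, with 11 and 8 markers at 0 in all cells, and the part of such markers in the differences below was not tested. Reads carry no molecular identifiers, so counting intervals below cover counting error only. By read counting alone, a count of 0 allows a level of up to 0.102 CPM in the shallowest cell (3 counts). A transcript lost at capture or in amplification would also read 0, so a count of 0 or near 0 does not show absence.

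Among the score genes, Cdc20 and Plk1 had the widest gaps between sisters. Cdc20, which activates the anaphase-promoting complex (APC/C), measured 0.510 to 1755 CPM (median 222) in high-score sisters and 0.535 to 514 CPM (median 58.5) in low-score sisters. Both ranges start near 0 and overlap widely, yet the high-score sister had the higher level in 21 of 24 pairs, with a median paired difference of 1.97 ± 2.64 on the log2(CPM + 1) scale (SD, n = 24 pairs). Plk1, the mitotic polo kinase, lay between 0.210 and 383 CPM (median 117) in high-score and between 0.230 and 184 CPM (median 30.1) in low-score sisters, and was higher in the high-score sister in 23 of 24 pairs, by a median of 1.71 ± 2.34. Summed over cells, Plk1 had 119271 counts in high-score and 35682 in low-score sisters, with exact 95% Poisson intervals of 118600 to 119950 and 35313 to 36054. Cyclin B1 (Ccnb1) differed by a median of 1.20 ± 2.10, Aurora kinases B and A by 1.10 ± 3.04 and 1.00 ± 2.47, the centromeric histone Cenpa by 0.77 ± 1.30, the kinetochore motor Cenpe by 0.70 ± 1.76 and Cdk1 by 0.68 ± 1.84. Mki67, the usual label of dividing cells, had the smallest median difference of the 9, 0.61 ± 2.34, although it was higher in the high-score sister in 21 pairs. When the gene in question was itself left out of the score, and pairs and sisters were picked anew from the other 8, the median was 1.53 for Plk1, 1.00 for Ccnb1, 0.98 for Cdc20, 0.77 for Cenpa, 0.63 for Cdk1, 0.57 for Cenpe, 0.50 for Mki67, 0.45 for Aurkb and 0.28 for Aurka. Of the 9 medians obtained in this way, only that of Plk1 was past 2-fold. Aurkb also moved between 0.59 (without set 6) and 1.80 (without set 4) when sets of 8 cells, as the deposited tables are named, were left out in turn. Each of the SDs over all 24 pairs exceeds its median, and gaps ran from hardly any difference to over 100-fold, as in pair 46 for Mki67.

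Single pairs differed in which score genes set their sisters apart, and these gaps, like the pairs themselves, follow from the choice by score. In pair 46, Mki67 measured 558 CPM in the high-score sister and 1.85 CPM in the other, Cdc20 497 and 1.01 CPM, and Plk1 140 and 0.375 CPM. Pair 41 had 415 and 3.37 CPM of Mki67 but 98.0 and 72.5 CPM of Cdc20. Pair 3 was the reverse: Mki67 was similar, at 554 and 461 CPM, whereas Cdc20 measured 1755 and 155 CPM and Plk1 259 and 0.944 CPM. Of these 3 genes, sisters of pair 46 differed in all and those of pair 41 mainly in Mki67. Those of pair 3 differed mainly in Cdc20 and Plk1. Other score genes had wide gaps too, such as Aurka in pair 3 (467 against 0.917 CPM) and pair 41 (61.2 against 0.417 CPM). Aurkb (55.1 against 0.362 CPM) and Ccnb1 (74.1 against 2.12 CPM) also differed widely in pair 41, whereas Cdk1 was lower in its high-score sister (43.6 against 75.4 CPM). At the other end, the high-score sister of pair 19 had the highest score of all 96 cells. Mki67 was at 2185 CPM in that cell and 2356 CPM in its low-score sister.

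**Figure D2:**
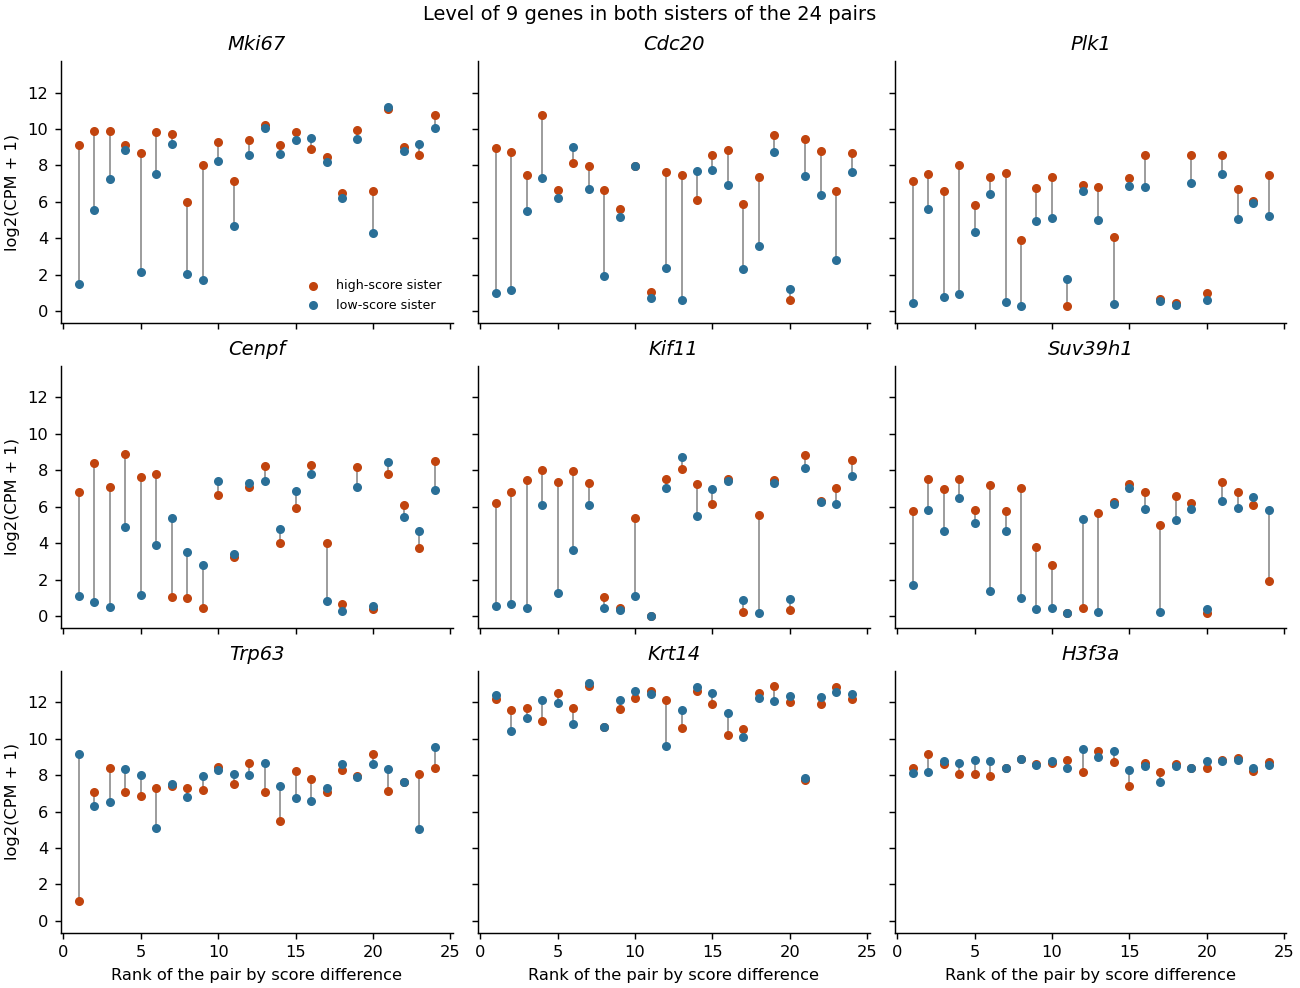
Level (log2(CPM + 1), vertical axes) of 9 genes in the high-score and low-score sister of each of the 24 pairs, ordered by the rank of the score difference, with lines joining sisters. Mitotic genes Plk1, Cenpf and Kif11 lie near 0 in several low-score sisters at the left, whereas Krt14 and H3f3a differ by 2-fold or more in 5 and 2 pairs (most in pair 22 for both, with Krt14 at 4461 against 781 CPM) and Trp63 stands far below the rest in 1 cell, the high-score sister of pair 46.

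The median over 14463 genes tested (10 or more counts in 10% of cells) of the median paired difference was 0. At least 2-fold higher in the high-score sister, by the median over pairs, were 215 genes (1.49% of those tested), and at least 2-fold lower were 164 (1.13%). In the other 24 pairs, split by the same score but by 0.64 or less, 153 genes (1.06%) were past 2-fold higher and 146 (1.01%) lower. Of the 215 genes, 5 were also among these 153, beside 1.06% of all genes tested. With counts scaled to ERCC in place of the gene total, 302 genes were higher and 118 lower. The mean level over 96 cells had a median of 25.7 CPM for the 215 genes and 21.3 CPM for all genes tested. Among the 2100 genes with a mean of 100 CPM or more, 7 genes (0.333%) were at least 2-fold higher and 0 (0%) at least 2-fold lower. Of these 7 genes, 4 are the score genes Cdc20, Plk1, Ccnb1 and Aurka, whose difference was built in. The other 3 were cyclin A2 (Ccna2, 1.19 ± 2.98, higher in 16 pairs), the spindle protein gene Ckap2l (1.06 ± 2.15, higher in 18 pairs) and Fam83g (1.10 ± 2.09, higher in 16 pairs). In the other 24 pairs, 2 genes of this level were past 2-fold higher and 1 lower. The level of 100 CPM, and with it Fam83g and Ckap2l, was chosen after values were seen.

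**Figure D3:**
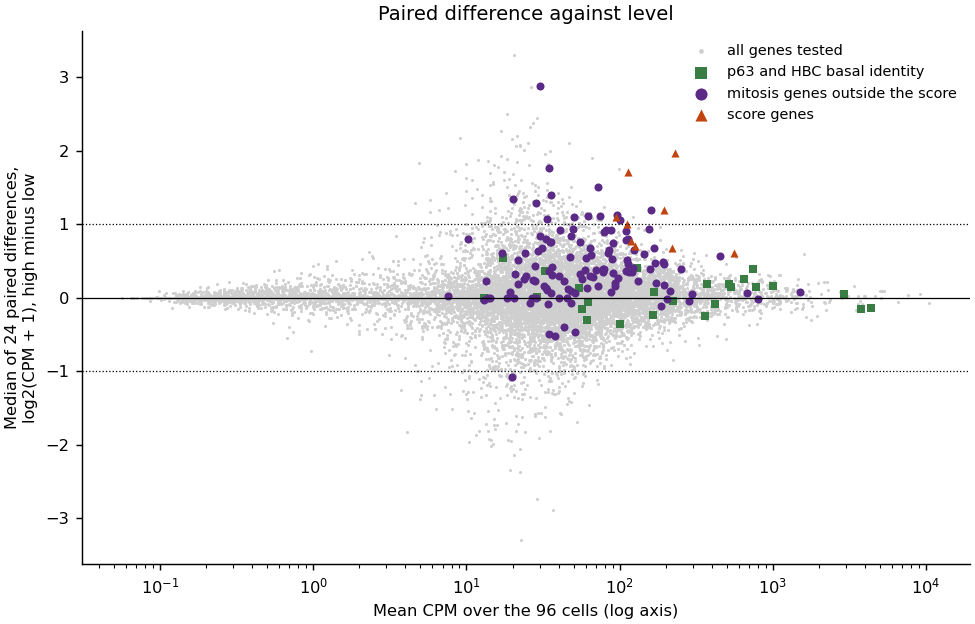
Median of 24 paired differences in log2(CPM + 1), high-score minus low-score sister (vertical axis), against mean CPM over 96 cells (log axis) for 14463 genes, with dotted lines at 2-fold. Mitosis genes outside the score lie mostly above 0 (103 of 124), basal identity genes on both sides of 0 (14 above and 10 below of 25). The grey cloud is widest between 10 and 100 CPM and narrower on either side.

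Genes of mitosis that are not in the score had a median of gene medians of 0.36 (124 tested), against 0 over all genes and 0.00 for the same list in the other 24 pairs. Of the 124, 103 had a median above 0 and 14 below. At least 2-fold higher were 13 (10.5%) and at least 2-fold lower 1, against 1.49% and 1.13% of all genes tested. In at least 18 of 24 pairs 17 were higher, which 1.09% of all genes tested were (0.712% were lower in at least 18), and 0 were lower in that many. The kinesins and spindle proteins (26 genes) had the highest list median, 0.57, and include Kif14, a kinesin of the midbody (1.28 ± 2.38, higher in 19 pairs), and Kif20a, a kinesin of the central spindle (1.13 ± 2.45, 18 pairs). Chromosomal passenger and cytokinesis genes (14) followed at 0.48, with Cep55, an abscission scaffold, at 1.08 ± 1.89 (20 pairs) and Cdca2, a chromatin regulator of mitotic exit, at 1.11 (17 pairs). For the kinetochore and spindle checkpoint (36 genes) the list median was 0.39. Its extremes were Cenpi (2.88 ± 2.98, higher in 15 pairs) and the Ndc80 complex member Nuf2 (1.77 ± 2.06, 16 pairs) above, and Cenpm (-1.08 ± 2.90, lower in 15 pairs) below. Condensins and other chromatin genes of mitosis (16) stood at 0.34 with none of them past 2-fold, and mitotic cyclins, CDK regulators and APC/C genes (23) at 0.31 with Ccna2 past 2-fold. The transcription factors of the programme differed less: for 9 genes, which include Foxm1 (0.42 ± 3.21, higher in 14 pairs) and Lin9 (0.80 ± 3.04, 14 pairs), the list median was 0.00.

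The difference in mitosis genes was uneven over the pairs. When the median over the 124 mitosis genes was taken within each pair, 6 pairs had values from 1.03 to 3.70 and the other 18 from -0.09 to 0.50, of which 14 were above 0. The 6 pairs were pair 46 (3.70), pair 38 (3.38), pair 17 (2.54), pair 41 (1.94), pair 23 (1.25) and pair 3 (1.03), which are also the first 6 by score difference. Genes were also counted at 10 CPM or more. Of the 124 mitosis genes, the high-score sister of pair 46 had 100 and the low-score sister 37, in pair 38 the numbers were 110 and 46, in pair 17 121 and 65, and in pair 41 95 and 54. Pair 43, outside those 6, had 75 and 43, a wider gap than in pair 23 (107 and 84) or pair 3 (117 and 103). Over the 24 pairs the high-score sister had more of these genes in 20 pairs and fewer in 4, with a median gain of 6.5 genes, against 17 and 7 pairs and a median of 4 genes in the other 24 pairs.

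**Figure D4:**
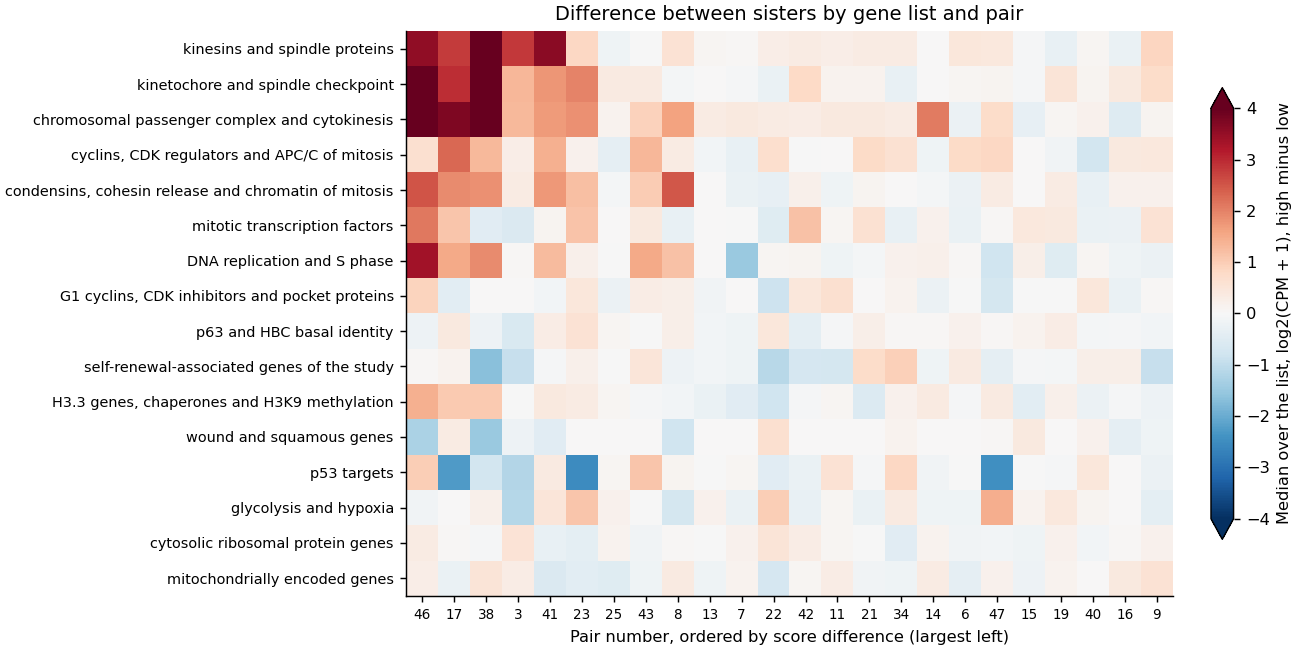
Median over the genes of a list of the difference in log2(CPM + 1), high-score minus low-score sister (colour, limited at 4 and -4), for 16 gene lists (rows) in each of the 24 pairs (columns, by score difference). Red is darkest in the 3 upper lists in pairs 46, 17 and 38, in kinesins and spindle proteins of pairs 3 and 41 and in S phase genes of pair 46. The rows for p63 and basal identity and for ribosomal protein genes stay between -0.60 and 0.59.

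A separate look at the 5 pairs with a score difference of 2 or more, chosen after values were seen, asked which genes were at least 2-fold higher in every one of them. There were 66 such genes of 14463 (0.456%), and 26 (0.18%) were at least 2-fold lower in every one. Of the 66, 31 were among the 124 mitosis genes outside the score, 3 were score genes (Plk1, Aurkb and Aurka) and 2 were S phase genes (Clspn and Exo1). None of the 26 lower genes was on these lists. The lists hold only 124, 9 and 62 of the 14463 genes, so none among 26 is near their share. Cenpf, a kinetochore protein of G2 and mitosis, measured 109, 332, 133, 478 and 197 CPM in the high-score sisters of pairs 46, 17, 38, 3 and 41 and 1.16, 0.688, 0.418, 28.9 and 1.22 CPM in their sisters. Kif11, the kinesin that pushes spindle poles apart, had 71.7, 110, 173, 256 and 166 CPM against 0.462, 0.597, 0.362, 67.0 and 1.39 CPM. In 4 of these 5 pairs both transcripts were under 2 CPM in the low-score sister, and pair 3 kept part of each. Over all 24 pairs Cenpf was higher in the high-score sister in 13 and Kif11 in 19, and Cenpf was lower in the high-score sister of pair 25 (1.09 against 40.2 CPM) and of pair 43 (0.979 against 10.2 CPM). For Cenpf and Kif11 the groups of sisters overlapped across pairs.

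S phase genes separated the pairs further. Over 62 DNA replication and S phase genes the list median was 0.21, with 48 genes above 0 and 12 below, 2 at least 2-fold higher (the helicase gene Blm, 1.40 ± 3.15, and Rad51ap1, 1.21 ± 2.24) and 0 at least 2-fold lower (background 1.49% and 1.13%). Within pairs, 6 had an S phase median of 1.18 or more, namely pair 46 (3.37), pair 38 (1.89), pair 17 (1.53), pair 43 (1.53), pair 41 (1.28) and pair 8 (1.18), and the other 18 lay between -1.49 and 0.23. Pairs 46, 38, 17 and 41 were thus high in both lists. Pairs 43 and 8 had a mitosis median of only 0.50 and 0.31, and pairs 3 and 23, with mitosis medians above 1, had S phase medians of 0.05 and 0.21. In the 7 pairs with both sisters over the median score, the mitosis median was above 0 in all 7 (0.02 to 0.43) whereas the S phase median was below 0 in 4 (-0.79 to 0.18). Clspn, a replication checkpoint adaptor, went either way in single pairs. It was higher in the high-score sister of pair 46 (83.9 against 0.751 CPM) and pair 41 (138 against 0.250 CPM). It was lower in that of pair 19 (9.87 against 149 CPM) and pair 47 (31.8 against 129 CPM). Among pairs with both sisters over the median score, Clspn was higher in pairs 21 (59.1 against 1.86 CPM), 42 and 34 and lower in pairs 19, 47, 40 and 9. Pair 7, whose scores were both low (2.77 and 1.48), went the other way in S phase genes (-1.49), with 32 of the 62 genes at 10 CPM or more in its high-score and 43 in its low-score sister.

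Suv39h1 (chrX:8061171-8074760, minus strand, GRCm38) was the single gene of 18 in the list of H3.3 genes, their chaperones and H3K9 methylation that was at least 2-fold higher (background 1.49%). Its level ran from 0.120 to 185 CPM (median 70.0) in high-score and from 0.112 to 128 CPM (median 35.1) in low-score sisters, and it was higher in the high-score sister in 20 of 24 pairs. The median paired difference was 1.05 ± 2.65, against -0.02 in the other 24 pairs, where it was higher in 11. It fell just under 2-fold, at 0.99, when Cdc20 or Aurka was left out of the score, and was 0.88 with a pseudocount of 10 and 0.70 over all 48 pairs. Levels under 2 CPM were found in 3 high-score and 8 low-score sisters. The widest gaps were in pair 43 (127 against 1.01 CPM), pair 23 (143 against 1.61 CPM) and pair 42 (49.8 against 0.178 CPM), and pairs 22 (0.363 against 38.4 CPM) and 9 (2.82 against 56.5 CPM) were reversed. In the 5 pairs with the widest score gap it was higher in the high-score sister in all 5, by 0.75 to 4.05. The related methyltransferases stood at 0.26 (Suv39h2), 0.55 (Setdb1) and -0.91 (Setdb2), and the H3.3 genes themselves were level, with H3f3a at 0.01 ± 0.52 (168.5 to 632 against 198 to 694 CPM, higher in 12 pairs) and H3f3b at -0.08 ± 0.55 (higher in 10 pairs). The list median was 0.02. Within pairs 46, 17 and 38 the median over the list reached 1.42, 1.05 and 1.05. It was -0.81 in pair 22 and -0.54 in pair 21, and lay above 0 in 11 pairs and below 0 in 13.

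Basal identity did not follow the score in these pairs. Trp63, which encodes the p63 factor that holds HBCs in reserve (chr16:25683763-25892102, plus strand), measured 1.14 to 578 CPM (median 176) in high-score and 32.0 to 735 CPM (median 239) in low-score sisters. It was higher in the high-score sister in 12 pairs and lower in 12, with a median of -0.04 ± 2.07. Pair 46 had the widest gap in Trp63. Its high-score sister, with 558 CPM of Mki67, had 1.14 CPM of Trp63 and its low-score sister 567 CPM. In this pair Krt14 was 4631 and 5320 CPM. Other pairs also differed past 2-fold in Trp63, in both directions, as in pair 16 (264 against 32.0 CPM) and pair 11 (43.3 against 169 CPM). Krt5 differed by 0.05 ± 0.59 and Krt14, from 209 to 7741 CPM in high-score sisters, by -0.15 ± 0.81. For all 25 basal identity genes tested the list median was 0.05, with 0 past 2-fold either way (background 1.49% and 1.13%), and the median within a pair stayed between -0.60 and 0.59. The extremes were Sox2 (0.54 ± 1.64, higher in 16 pairs) and Notch1 (0.40 ± 2.24) above, and Jag1 (-0.35 ± 1.10) and Krt15 (-0.30 ± 3.36, lower in 17 pairs) below. The count of these genes at 10 CPM or more was 19 to 25 in high-score and 20 to 23 in low-score sisters, with a median of 22 in both.

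**Figure D5:**
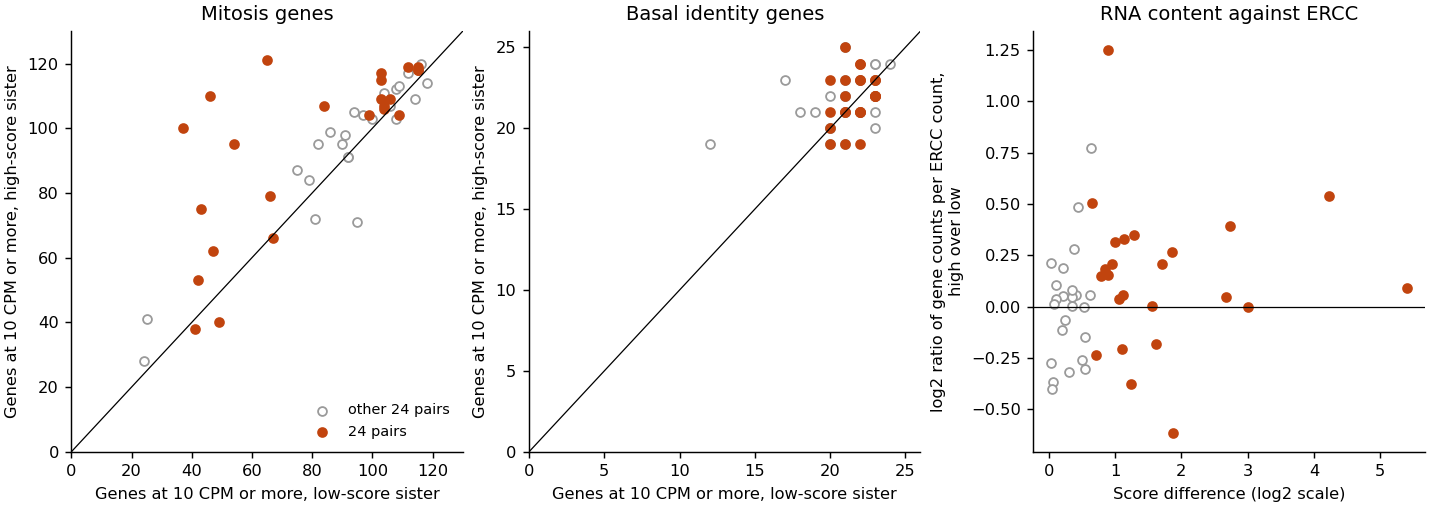
Number of genes at 10 CPM or more in the high-score against the low-score sister for 124 mitosis genes (left) and 25 basal identity genes (middle), with the line of equality, and log2 ratio of gene counts per ERCC count against score difference (right). The 24 pairs described are filled, and several lie far above the line for mitosis genes, at 100 against 37 in pair 46, but around it for basal identity genes.

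The self-renewal-associated genes that the study named from these cells (8) had a list median of -0.05 and the differentiation-associated ones (4 of 6 tested) 0.07, with 0 genes past 2-fold in either (background 1.49% and 1.13%). Both lists were chosen by the study on these cells, and Mki67 and Cdc20, which the study also named with the second, were left out of it here as score genes. Myc, a growth regulator, had the widest difference among them, -0.51 ± 3.27, and was lower in the high-score sister in 16 pairs, among them pair 41 (1.00 against 180 CPM), pair 25 (1.01 against 147 CPM) and pair 38 (24.8 against 470 CPM). Pair 21 was the opposite, at 620 against 0.880 CPM. Krt16, Kdm1a, Yap1 and Sox9 differed by 0.14, 0.15, -0.14 and 0.00. Of the wound and squamous genes (26 of 39 tested), Tgm1, which crosslinks the cornified envelope, was at least 2-fold lower (-1.17 ± 3.00, lower in 15 pairs) and Dsc2, a desmosomal cadherin, was at 0.92 ± 1.83, while the list median was 0.00. Of the 26 genes, 6 had a median above 0 and 9 below, and the rest were at 0. In pairs 46 and 38 the wound and squamous median was -1.25 and -1.49, and in pairs 22 and 15 it was 0.63 and 0.39. It was above 0 in 7 pairs and below 0 in 7. Counts of Sprr2 genes, near-identical copies of each other, may be split among them, and the medians of the 5 on the list were between -0.07 and 0.00.

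Cell cycle inhibitors and stress genes varied from pair to pair. Cdkn1a, the p21 inhibitor and a p53 target, spanned 0.433 to 2721 CPM in high-score and 0.683 to 2170 CPM in low-score sisters, and its median difference was -0.28 ± 2.95 (lower in 15 pairs). Of the 6 pairs with the largest score difference, 4 had far less Cdkn1a in the high-score sister: pair 3 (1.26 against 1154 CPM), pair 23 (211 against 2170 CPM), pair 17 (106 against 1224 CPM) and pair 38 (14.7 against 123 CPM). Pairs 46 (264 against 189 CPM) and 41 (91.7 against 87.3 CPM) did not share this. Outside these 6 pairs Cdkn1a went both ways. It was far higher in the high-score sister of pair 43 (399 against 25.8 CPM) and pair 6 (280 against 3.81 CPM). It was far lower in that of pair 8 (11.3 against 174 CPM) and pair 22 (58.8 against 572 CPM). The median over 24 p53 targets was -2.52 in pair 23, -2.28 in pair 17 and -2.46 in pair 47. In pairs 43 and 46 it was 1.10 and 0.97. It was above 0 in 9 pairs and below 0 in 14, and the list median was -0.05. G1 cyclins, CDK inhibitors and pocket proteins (23 genes) had a list median of 0.02, with Ccnd1 at 0.26 and E2f3 at -0.87 ± 2.54. Integrated stress response genes (20) stood at -0.07 with Ddit3 at -1.27 ± 4.00, immediate early genes (25) at -0.04 with Zfp36 at -1.01 ± 2.79, and glycolysis and hypoxia genes (24) at 0.06. Airway and xenobiotic genes (24) stood at -0.01 with Ugt1a6a at 0.98 ± 2.28 (higher in 20 pairs, though it shares exons with other Ugt1a genes), and polarity and division orientation genes (22) at 0.02. Housekeeping groups were tighter: ribosomal protein genes (85) had a list median of 0.03 with gene medians from -0.14 to 0.31, and mitochondrially encoded genes (36) 0.04. Replication-dependent histone genes (53) were at 0.02, with H4c9 at 2.38 ± 3.04, a gene with near-identical copies whose transcripts largely lack a poly(A) tail.

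Many of the largest medians belonged to single genes of varied function outside the cycling lists. Under the rule that a difference have the same sign in at least 18 of 24 pairs, 36 genes (0.249%) were at least 2-fold higher and 23 (0.159%) at least 2-fold lower. The 12 highest of them were Eme1 (2.33), Smo, Atp9a, Tnfrsf21, Gtpbp6, Mgat3, Cdc20, Fpgs, Crebzf, Abraxas2, Plk1 and Arl16 (1.60). Cdc20 and Plk1 are score genes, whose difference was built in. Eme1, a subunit of a nuclease that resolves DNA junctions, had a median of 27.6 CPM in high-score and 0.214 CPM in low-score sisters. It was also among the 66 genes higher in all 5 widest pairs, which are part of the 24. Smo, the Hedgehog signal transducer, had medians of 33.3 and 2.29 CPM and was higher in 20 pairs. Abraxas2, a subunit of a deubiquitinase complex, was counted in all 48 cells, at 14.9 to 99.4 CPM in high-score and 0.115 to 87.4 CPM in low-score sisters, and was higher in 20 pairs. The 12 lowest ran from Cnnm3 to Per1 (-1.37), through Atp6v0a1, Zfp672, Cnksr1, Lats2, Pyroxd1, Stx11, Pqlc3, Cd82, Itch and Gpbp1l1. Among these, Lats2, a Hippo pathway kinase, had medians of 4.09 CPM in high-score and 29.6 CPM in low-score sisters and was lower in 19 pairs, and the circadian gene Per1 had 30.2 and 53.7 CPM and was lower in 18. In the other 24 pairs the same genes gave 0.40 for Lats2, -0.23 for Per1, -0.85 for Eme1, 0.40 for Smo and -0.68 for Abraxas2, so Lats2, Eme1 and Abraxas2 had the opposite sign there.

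RNA content was read against ERCC. The log2 ratio of gene counts per ERCC count, high-score over low-score sister, had a median of 0.15 ± 0.36 (SD, n = 24 pairs) and was above 0 in 18 pairs, against 0.02 ± 0.27 and 14 pairs among the other 24, so that both medians were smaller than their SD. In the 5 widest pairs it was 0.09, 0.54, 0.00, 0.39 and 0.05 for pairs 46, 17, 38, 3 and 41, and the lowest and highest ratios were in pair 23 (-0.61) and pair 47 (1.25). Genes detected differed by a median of 85.5 (medians of 12952 and 12906 per cell) and the mitochondrial share of counts by 0.0707 percentage points. CPM removes the total, and when counts were scaled to ERCC instead the mitosis list median was 0.49 and that of basal identity genes 0.18. The part of RNA content in the other differences was not tested.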

How the data were processed

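Single cells were lysed, ERCC spike-in was added and polyadenylated RNA was captured on oligo-dT beads and amplified by the G&T-seq protocol. Per the labels and methods, the authors trimmed reads with Trimmomatic 0.39, aligned them with STAR 2.7.11a to GRCm38 (Ensembl release 100) with ERCC sequences and quantified genes with StringTie 2.2.1. The deposited table holds whole-number counts for 55487 genes and 92 ERCC transcripts, without normalization, and the deposited TPM of 96 tables, scaled with ERCC included, was used as an alternative. Strand in the counting is not given in the sources used here, so reads of overlapping antisense genes cannot be told apart.

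CPM used counts on genes only. For the 24 pairs, the difference in log2(CPM + 1) was taken per gene and pair, and its median and SD over pairs are given. A gene was called at a median of at least 1 or at most -1 (2-fold), over genes with 10 or more counts in 10% of cells. A pseudocount of 1 understates differences of low genes. Lists were summarised by the median of their gene medians. The genes named are the score genes, the 12 largest differences each way with the same sign in 18 pairs, 2 genes at each end of a list and genes the study named. Any others were named after their values were seen, among them single members of the mitosis, S phase, H3K9 and squamous lists. Members and lists were chosen with earlier results of these data known, and list symbols were updated to the annotation's names. Promoters came from RefSeq (GRCm38.p6). Scripts used Python 3.11.15, numpy 2.4.6, pandas 2.3.3, scipy 1.17.1 and matplotlib 3.10.9, and paired medians were tested on simulated data.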

Additional observations from a re-analysis of the deposited data

How the results depend on the processing

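The number of genes past 2-fold depended on the processing. With a pseudocount of 0.1 or 10 in place of 1, 431 or 31 genes were higher and 376 or 20 lower, and with the mean over pairs in place of the median 397 and 282. Taking 12 pairs gave 694 and 684, all 48 pairs 25 and 29, and the 17 pairs whose high-score sister was over the median score, an alternative chosen after seeing the data, 412 and 314. Leaving out a score gene or a set of 8 cells in turn gave 186 to 296 higher and 136 to 252 lower, with 252 when set 4 was left out. Fewer pairs can make a median noisier, but the choice of 12 pairs also kept those with the widest score differences. Number of pairs and width of the difference were not separated, and the cause of these shifts was not tested. The median over replication-dependent histone genes was 0.20 with the mean over pairs. The mitosis list median stayed above 0 under all 34 alternatives, from 0.18 (48 pairs) to 0.97 (12 pairs), and the basal identity median lay between -0.02 and 0.18. Suv39h1 stayed above 0, from 0.70 to 2.01. Thinning the deeper sister to equal depth, also chosen after seeing the data, gave 218 and 164 genes. ERCC size factors gave 302 and 118, so the share of higher among called genes was larger there. No sample was repeated per division, so technical noise between cells cannot be separated from the spread between sisters.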
